A study of Mus musculus with 4 samples.

Results

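The Hoxa genes lie side by side in the Hoxa cluster on mouse chromosome 6, and 9 of them (Hoxa2, Hoxa3, Hoxa4, Hoxa5, Hoxa6, Hoxa7, Hoxa9, Hoxa10 and Hoxa11) are described here from ATAC-Seq peaks. The peaks were those of 4 lists that overlapped these genes or the 5000 bp on either side of each, merged into 1 region wherever they overlapped by at least 1 bp. Together the 9 flanked genes formed a single window of 93394 bp (chr6:52157417-52250810, mm10), which held 47 of the 337776 merged regions of the autosomes and X. The 9 genes are among 18826 protein-coding genes with a peak in their flanked span in at least 1 library. ATAC-Seq uses a transposase that inserts into open DNA, so a peak marks a stretch of accessible chromatin.

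Hox genes encode homeodomain transcription factors, and their order along the chromosome follows the order along the body axis in which they act, a property called collinearity. Hoxa2 and Hoxa3, at one end, pattern the hindbrain and the pharyngeal arches, while Hoxa9, Hoxa10 and Hoxa11, toward the other end, act in posterior and limb structures. In blood formation, Hoxa9 and Hoxa10 are active in stem and progenitor cells and are switched off as cells mature, with MEIS and PBX proteins as DNA-binding partners.

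The cells were bone marrow hematopoietic cells of mice, sorted and then cryopreserved, and they are named ltHSC in the sample labels and HSPCs in the study's text. The control group, labelled WT, carried floxed Cpt1a alleles (Cpt1a fl/fl) without Cre, and the KO group, labelled Cpt1a-KO, carried the same alleles with Vav1-Cre, which deletes Cpt1a, the gene of the carnitine palmitoyltransferase of the outer mitochondrial membrane, throughout the blood system rather than in stem cells alone. The mice were adults on a C57BL/6 background, and each genotype had 2 libraries, with no statement of whether they came from separate animals or from pools, so that p-values measure the spread between these libraries, which may be technical. In these mixtures of sorted cells, fewer cells with an open site and a site less open per cell cannot be told apart.

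Each list covered 42.58 to 52.88 Mb in 240881 to 277531 summits, and both KO lists covered less of the genome than both control lists, with a ratio of the mean KO to the mean control covered bases of 0.854. The lists hold no reads, so the sequencing depth is unknown. Peaks over Cpt1a covered 9.90% and 9.97% of its flanked span in the controls and 7.76% and 7.49% in KO, which is no check of the deletion because peaks were not located to the floxed exons. A peak over the gene start was present for 8 or 9 of the 9 stem and progenitor markers found in the promoter table, in every library. The same was true of 2 of 3 B cell markers in every library, 1 or 2 of 5 T cell markers, 0 or 1 of 2 erythroid markers, 3 or 4 of 4 granulocyte and monocyte markers and 2 or 3 of 5 genes used outside blood. Of all 17274 protein-coding genes in the promoter table, 65.2% to 66.5% had such a peak per library. Among the defining markers, Cd3e, Cd3d, Cd8a, Ebf1, Klf1 and Alb had no such peak in any library. Pax5 and Cd79a (B cell) had one in every library, and Cd3g and Lck (T cell), Epor (erythroid) and Myh6, Neurod1, Krt5 and Pdx1 (outside blood) had one in at least 1 library. The part of other cells in the results was not tested.

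The promoter windows of RefSeq (GRCm38.p6, the assembly behind mm10) run from 250 bp before to 50 bp after a gene's start and were found for 8 of the 9 genes, all on the minus strand. Hoxa4 was not matched. Its start was therefore taken as the upper end of its RefSeq span. The windows shown were chosen because peaks covered one of them whole in every library, covered a part of the second and the third, and missed the fourth and the fifth. They are the windows of Hoxa3 (chr6:52213018-52213317), Hoxa5 (chr6:52204538-52204837), the outer start of Hoxa10 (chr6:52240805-52241104), the inner start of Hoxa10 (chr6:52234890-52235189) and Hoxa9 (chr6:52227321-52227620), printed 5′ to 3′ along the gene, and capitals mark the bases that lay inside a peak of at least 1 library.
Hoxa3: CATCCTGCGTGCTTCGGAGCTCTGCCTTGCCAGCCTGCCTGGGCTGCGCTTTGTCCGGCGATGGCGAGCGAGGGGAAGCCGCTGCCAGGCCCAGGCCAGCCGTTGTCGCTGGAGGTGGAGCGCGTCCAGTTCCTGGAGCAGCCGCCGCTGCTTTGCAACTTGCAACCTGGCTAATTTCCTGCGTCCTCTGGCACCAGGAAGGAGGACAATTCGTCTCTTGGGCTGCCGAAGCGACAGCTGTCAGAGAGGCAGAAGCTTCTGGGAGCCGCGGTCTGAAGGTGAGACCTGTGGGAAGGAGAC
Hoxa5: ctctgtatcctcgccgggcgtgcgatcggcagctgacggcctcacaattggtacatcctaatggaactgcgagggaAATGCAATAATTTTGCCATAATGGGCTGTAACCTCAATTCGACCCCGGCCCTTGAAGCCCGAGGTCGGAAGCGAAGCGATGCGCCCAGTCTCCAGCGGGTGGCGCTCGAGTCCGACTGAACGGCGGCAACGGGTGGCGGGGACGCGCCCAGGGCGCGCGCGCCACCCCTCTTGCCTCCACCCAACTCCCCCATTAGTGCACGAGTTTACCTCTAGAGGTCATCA
Hoxa10 outer start: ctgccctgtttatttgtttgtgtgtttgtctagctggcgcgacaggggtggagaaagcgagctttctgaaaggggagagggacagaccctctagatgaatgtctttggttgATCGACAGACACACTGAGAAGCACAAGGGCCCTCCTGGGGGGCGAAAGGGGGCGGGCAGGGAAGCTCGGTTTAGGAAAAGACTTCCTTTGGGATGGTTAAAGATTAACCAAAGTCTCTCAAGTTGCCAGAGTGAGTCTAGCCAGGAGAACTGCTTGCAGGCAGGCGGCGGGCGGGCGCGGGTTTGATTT
Hoxa10 inner start: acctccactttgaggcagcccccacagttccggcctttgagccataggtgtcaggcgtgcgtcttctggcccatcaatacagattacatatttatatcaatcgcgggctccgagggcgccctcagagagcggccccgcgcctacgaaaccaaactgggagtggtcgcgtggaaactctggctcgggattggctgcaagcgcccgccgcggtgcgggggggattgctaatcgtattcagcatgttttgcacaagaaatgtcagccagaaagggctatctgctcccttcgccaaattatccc
Hoxa9: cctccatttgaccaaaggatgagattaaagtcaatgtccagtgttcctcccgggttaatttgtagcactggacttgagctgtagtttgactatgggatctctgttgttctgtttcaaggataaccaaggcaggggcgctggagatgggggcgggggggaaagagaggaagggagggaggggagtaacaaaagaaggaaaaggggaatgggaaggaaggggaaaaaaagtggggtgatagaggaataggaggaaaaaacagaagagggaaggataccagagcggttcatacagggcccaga

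All 300 bases of the Hoxa3 window were inside a peak in each of the 4 libraries. In the Hoxa5 window 224 bases were covered in control 1, 114 in control 2, 130 in KO 1 and 111 in KO 2, always on the side of the gene. The window at the outer Hoxa10 start had 22 covered bases in control 1 and 189 in control 2, against 0 in both KO libraries, where the peak ended inside the gene. The window of Hoxa2 was covered in control 2 alone (285 bases), and that of Hoxa6 in KO 2 alone (73 bases). At the Hoxa11 start, 155 bases were covered in control 1, 0 in control 2, 117 in KO 1 and 61 in KO 2. No library had a peak over the windows of Hoxa7, Hoxa9 or the inner Hoxa10 start. A peak thus overlapped 2 of the 9 windows of these genes in all 4 libraries, beside 45.5% of all 32619 promoter windows.

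The windows differed in base composition. GC content was 64.0% at Hoxa3, 62.0% at Hoxa6 and 61.7% at Hoxa5, and 45.7% at Hoxa2, 49.7% at Hoxa9 and 51.0% at Hoxa11, beside a median of 53.0% over all windows. The Hoxa5 window held 29 CpG dinucleotides and the Hoxa9 window 4, with a median of 7 over all windows. CpG number and peaks did not go together throughout, since the Hoxa6 window with 26 CpG had a peak in KO 2 alone and the inner Hoxa10 window with 21 had none.

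Short motifs were searched on both strands as letters, where a match is a description and not a site. The TATA box TATAAA matched in 1 of the 9 windows (the inner Hoxa10 start) and in 13.7% of all windows. CCAAT matched in 4 of 9 and 37.6%, the Sp motif CCGCCC in 3 of 9 and 35.9%, the ETS motif GGAAGT in 1 of 9 and 23.9%, and the nuclear receptor half-site AGGTCA in 1 of 9 and 16.2%. The HOX-PBX motif TGATNNAT matched in 1 of 9 windows, that of Hoxa2, and in 8.79% of all windows. AGGNGGC, a part of the motif of the insulator protein CTCF, matched in 2 of 9 and 29.4%, and the caudal motif TTTATNG in 0 of 9 and 10.9%. The outer Hoxa10 window held 2 matches of AGGNGGC, which began -93 and 22 bases from the start, and 2 of CCGCCC, which began -90 and 29 bases from it. The first match of each overlapped the other, and all 4 were in the part inside the peak of control 2.

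The peaks of the cluster lay at a string of discrete sites, and openness between them cannot be read from lists without reads. Of the 47 regions, 14 were held by all 4 libraries (29.8%), beside 23.8% of all merged regions of the genome. A further 8 regions were in 3 libraries, 5 in 2 and 20 in a single library, and over the genome 59.3% of regions were in a single library. The 20 regions of a single library were weak and narrow, with a median covered width of 144.5 bp (73 to 422 bp) and a median percentile of 18.4 (0.258 to 44.1). The percentile is the rank of a summit by its fold over background among all summits of its library, so that 100 is the strongest. The 14 shared regions held most of the covered bases of the window, 74.0% and 82.2% in control 1 and control 2 and 79.0% and 81.5% in KO 1 and KO 2.

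**Figure D1:**
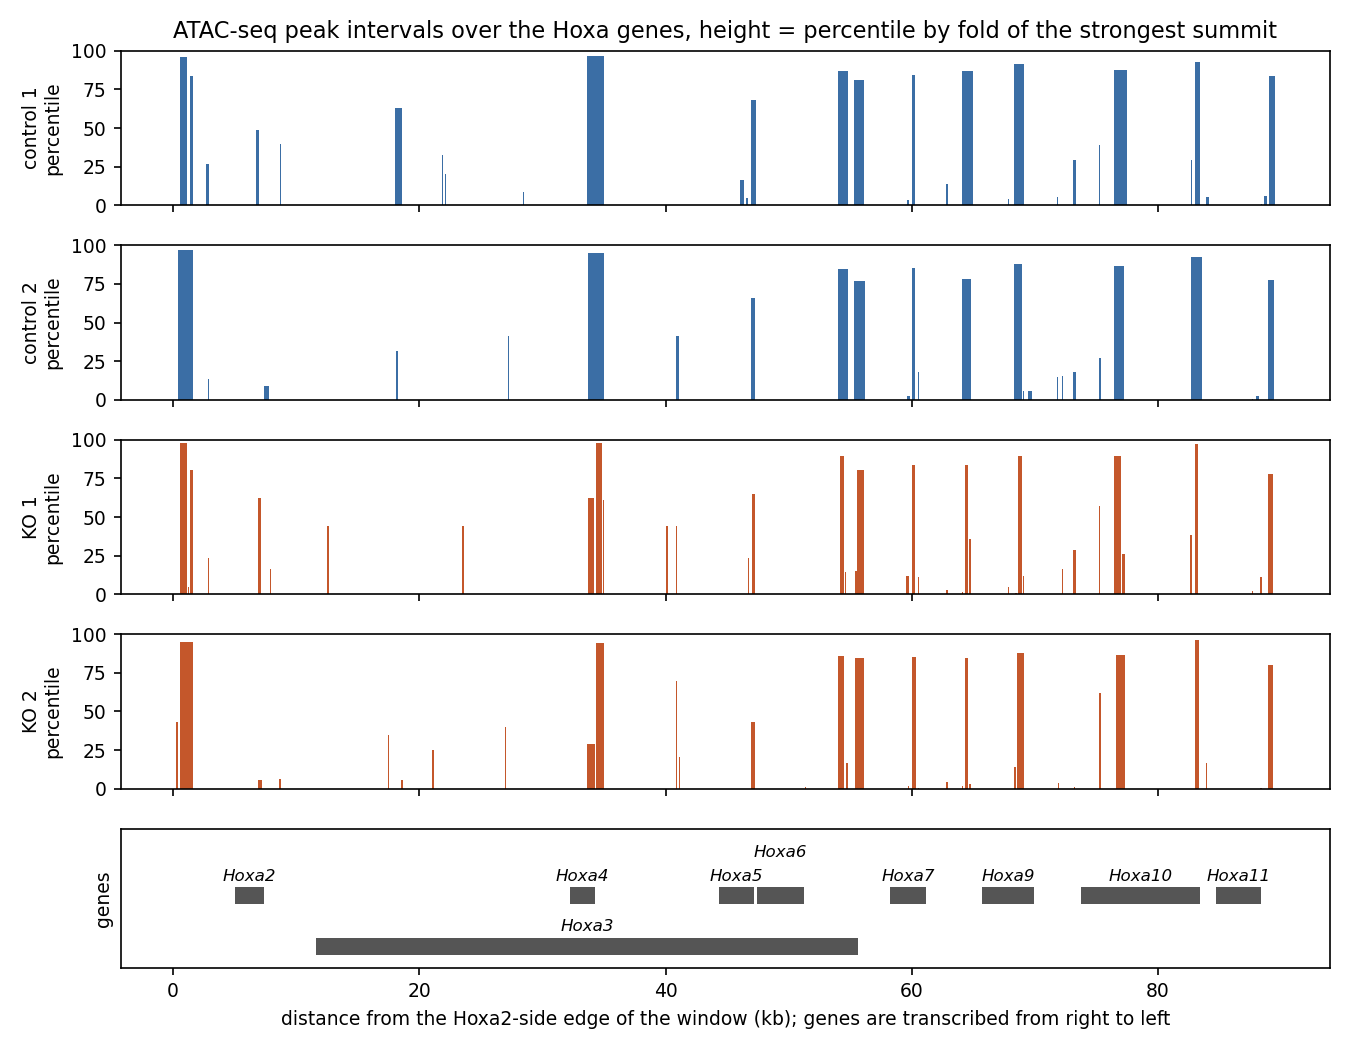
Peak intervals in the Hoxa window in the 4 libraries, drawn to scale against the distance from the edge of the window on the Hoxa2 side (kb). Bar height is the percentile by fold of the strongest summit of the interval in its library (0 to 100), and gray boxes are the RefSeq spans of the 9 genes. The tall bars stand at the same places in the 4 libraries, and a stretch of 32046 bp from beside Hoxa2 to Hoxa4 holds no region shared by all of them.

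The shared regions were spread unevenly along the gene order. The longest stretch without a shared region ran for 32046 bp (chr6:52159009-52191054), across Hoxa2, the far part of Hoxa3 and most of Hoxa4. It held 15 regions, of which 11 were in a single library. The next longest ran for 11915 bp, from above the Hoxa4 start to the Hoxa5 start. From the start of Hoxa3 to the far side of Hoxa11, shared regions followed one another with shorter gaps, as the map of the peak intervals shows.

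No region separated the genotypes by presence. There were 0 regions held by both KO libraries and neither control, beside 1.41% over the genome, and 0 held by both controls and neither KO library, beside 2.46%. With 47 regions, either share of the genome would amount to about 1 region, so counts of 0 are near the background. When lists were cut to the same number of summits (240881), 1 region was only in KO.

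The 10 strongest regions by mean percentile over the libraries are given in the order in which they lie. The strongest of all lay outside the 9 genes, beyond the far end of Hoxa2 (chr6:52157670-52159008), where it overlapped the start of Hotairm1, a noncoding RNA gene known from myeloid cells. Its percentile was 96.2 in control 1, 96.8 in control 2, 97.7 in KO 1 and 94.9 in KO 2, and the groups overlapped. Its covered width was 724 and 1158 bp in the controls and 985 and 1098 bp in KO. Its strongest summits in the 4 libraries lay within 8 bp of each other.

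The region at the start of Hoxa4 (chr6:52191055-52192450) was the second strongest and, at 1396 bp, the widest of the shared regions. Its percentile was 96.9 and 94.8 in the controls and 97.8 and 94.1 in KO, so the controls lay between the KO libraries. It covered 1396 and 1356 bp in the controls and 1023 and 1233 bp in KO. Hoxa4 thus had a strong peak at its start beside a long stretch with none shared.

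Hoxa3, whose long RefSeq model starts above Hoxa6 and spans Hoxa4, Hoxa5 and Hoxa6, had a pair of strong regions near that outer start. Both also overlapped the gene Hoxaas3, as did the region at the Hoxa5 start. At the start itself (chr6:52212742-52213584), the percentile was 80.8 and 76.8 in the controls and 80.3 and 84.8 in KO. The second, 798 bp inside the gene (chr6:52211457-52212269), had percentiles of 87.0 and 84.5 in the controls and 89.7 and 85.9 in KO. Neither separated the genotypes by rank. The covered width of the first was 827 and 822 bp in the controls against 730 and 778 bp in KO, and that of the second was 786 and 813 bp in the controls against 340 and 618 bp in the KO libraries.

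Hoxa5, which acts in lung and axial skeleton development, had the weakest start among those with a shared region. The region there (chr6:52204366-52204761) ranked 11th and is shown because it is the shared region at the gene's start. Its percentile was 68.0 and 65.6 in the controls and 65.2 and 43.3 in KO, so both controls were above both KO libraries, with control 2 and KO 1 nearly level and KO 2 lowest. Hoxa6 had no shared region at its start, where KO 2 alone had a 73 bp peak at percentile 1.18.

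Hoxa7 was flanked by strong regions on both sides of its start. The region inside the gene (chr6:52217444-52217722) was narrow and nearly constant, with percentiles of 84.4 and 85.5 in the controls and 83.7 and 85.0 in KO and with strongest summits within 5 bp. It covered 246 and 247 bp in the controls and 258 and 279 bp in KO, and it was the only one of the 14 shared regions that was wider in both KO libraries. The region between Hoxa7 and Hoxa9 (chr6:52221488-52222421) covered 916 and 724 bp in the controls and 499 and 452 bp in KO. Its percentile was 87.0 and 77.9 in the controls and 83.7 and 84.7 in KO, so it was narrower but not lower in rank in KO.

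Hoxa9, the member with the best-known part in stem cell self-renewal and in leukemia, had a single strong region, 833 bp inside its RefSeq start (chr6:52225717-52226537). Its fold over background was 10.5 and 9.18 in the controls and 9.60 and 8.61 in KO, at percentiles of 91.2, 88.0, 89.6 and 88.0. The covered width was 791 and 681 bp in the controls and 547 and 656 bp in KO, and the strongest summits lay within 12 bp. The −log10 q of the peak was 112 and 87.0 in the controls and 79.7 and 45.7 in KO. The −log10 q grows with depth, and the highest value in the window was also lowest in KO 2 (51.0, against 96.8 to 112). These values were therefore not read as differences between libraries. A cut at 5 served only in alternative settings and in counts of summits. It was passed by 42.5% and 46.8% of all summits in control 1 and control 2, and by 40.5% and 35.1% in KO 1 and KO 2.

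Hoxa10, which like Hoxa9 acts in blood progenitors, had a strong region near each of its RefSeq starts. The inner one (chr6:52233856-52234859) ended 31 bp short of the promoter window and had percentiles of 87.7 and 86.6 in the controls and 89.5 and 86.8 in KO. The outer one (chr6:52240033-52240993) was the third strongest region and separated the genotypes in both measures, in opposite directions. Its percentile was 92.9 and 92.7 in the controls and 97.1 and 96.0 in KO, with folds of 11.7 and 11.6 against 16 and 13.9. Its covered width was 488 and 901 bp in the controls and 373 and 351 bp in KO. It was thus higher in rank and narrower in both KO libraries, with strongest summits within 18 bp.

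A weaker region inside Hoxa10 (chr6:52232589-52232747), 12th in rank, was the other shared region with a higher percentile in both KO libraries, at 57.0 and 61.8 against 39.4 and 27.1 in the controls. Hoxa11, which patterns limb and reproductive tract, had its strong region 543 bp before its start (chr6:52246353-52246901), over the antisense gene Hoxa11os. Its percentile was 83.5 and 77.7 in the controls and 77.9 and 80.2 in KO, and its covered width was 497 and 425 bp against 420 and 382 bp. At the start itself 3 libraries had a peak, at percentiles of 1.20, 11.3 and 0.467.

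The summits stood at nearly the same positions in each library. In 7 of the 10 strongest regions the strongest summits of the 4 libraries lay within 50 bp of each other, with a median span of 13 bp over the 10 and a widest span of 106 bp. The lowest mean percentile among the 10 was 79.8 and that of the region ranked 11th was 60.5.

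**Figure D2:**
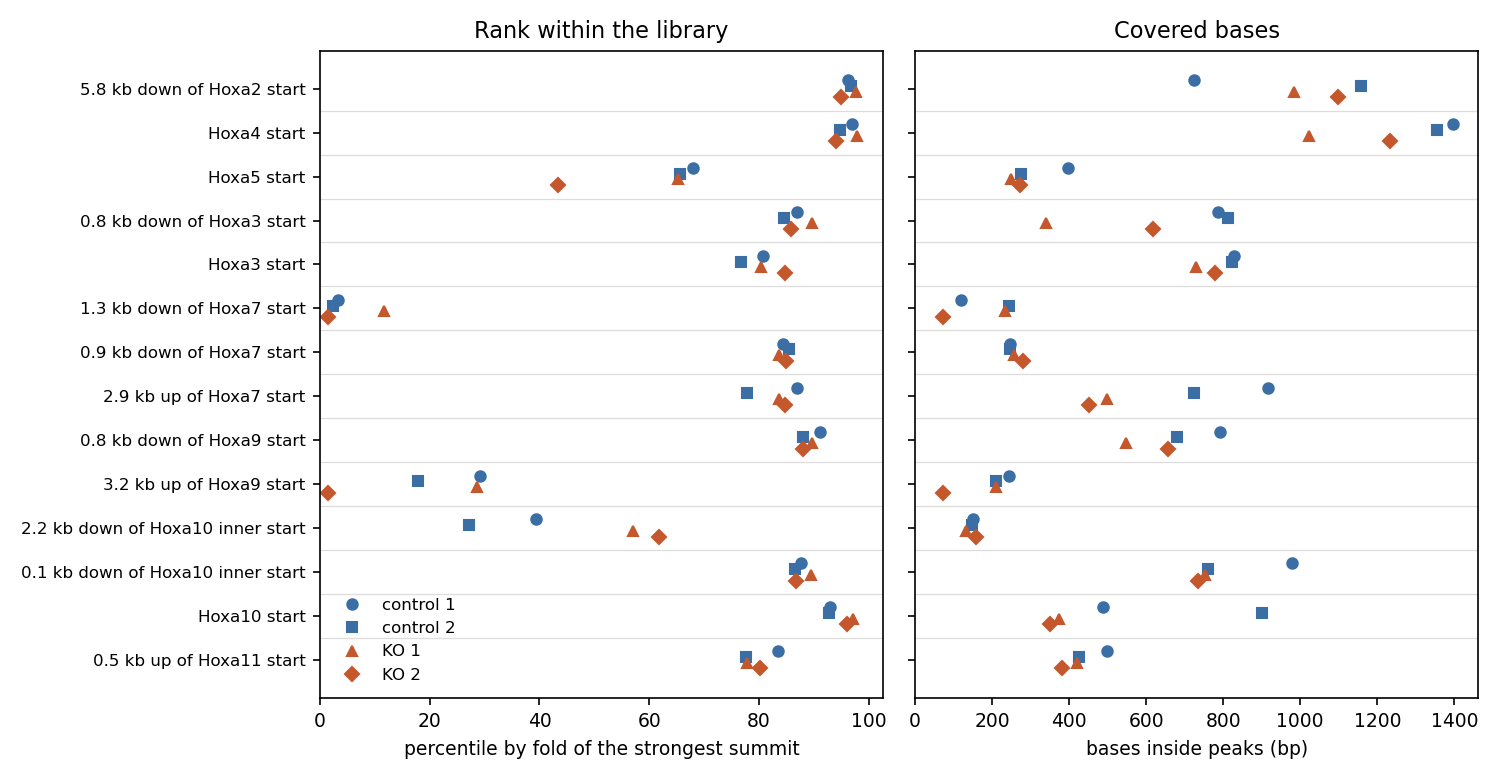
The 14 regions held by all 4 libraries, in order along the cluster and named by the nearest gene start, with the percentile by fold of the strongest summit (left, 0 to 100) and the covered bases (right, bp). Each point is 1 library. The percentiles of the genotypes overlap in 11 of the regions, and the controls cover more bases in 10.

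Counted over the 14 shared regions, both controls covered more bases than both KO libraries in 10 and fewer in 1, and the groups overlapped in 3. Over all 80271 shared regions of the genome the controls were the wider in 35.8% and the KO libraries in 6.85%. The median ratio of KO to control covered bases was 0.834 over the 14 regions and 0.872 over all shared regions. By percentile, both controls were above both KO libraries in 1 of the 14 regions and below in 2, and the groups overlapped in 11. Over the genome these shares were 22.9% and 14.8%. The rank of the strongest summit thus separated the genotypes in 3 of the 14 regions and the covered width in 11. With each deposited interval replaced by 200 bp to the left and right of its summit, a setting chosen after seeing the data, the controls covered more in 1 region and the KO libraries in 0.

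By gene, the covered percent (bases inside peaks as a percent of the gene and its flanks) was highest at Hoxa7 and lowest at Hoxa5 in each of the 4 libraries. Neighboring genes share flanks and regions, and the span of Hoxa3 holds 3 other members, so these values are not independent. Over the 4 libraries the mean was 20.6% ± 2.94 at Hoxa7 (SD, n = 4, genotypes together), 13.7% ± 3.48 at Hoxa6, 13.1% ± 3.18 at Hoxa9, 12.4% ± 2.71 at Hoxa10 and 12% ± 1.08 at Hoxa2. Next came 10.6% ± 1.62 at Hoxa4, 9.49% ± 2.62 at Hoxa11, 8.63% ± 1.22 at Hoxa3 and 5.06% ± 1.46 at Hoxa5. Each neighboring pair in this order overlapped in range. The median over protein-coding genes with a peak was 4.45% to 5.53% per library. Hoxa7 was above 99.7% of these genes by its mean, Hoxa9 above 95.7% and Hoxa5 above 50.5%. These ranks were not matched for gene length, and the flanked spans of the members ran from 12022 bp at Hoxa4 to 54009 bp at Hoxa3.

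**Figure D3:**
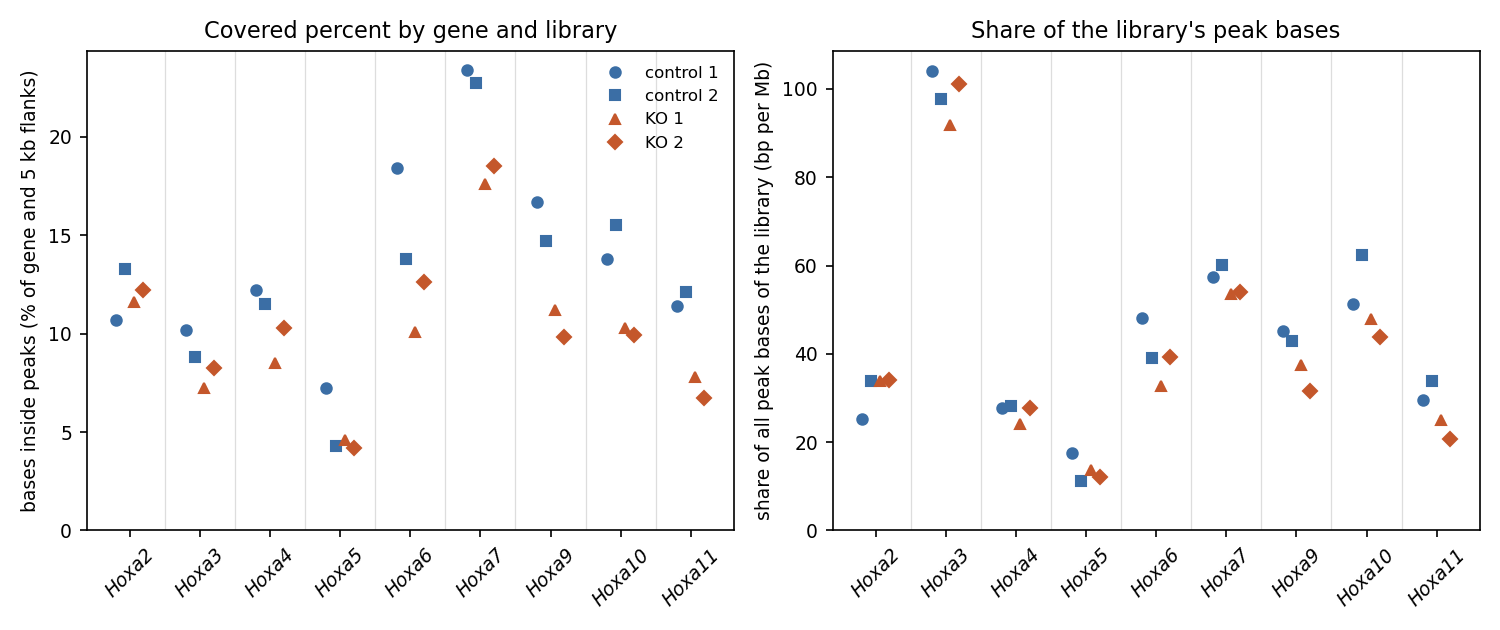
Covered percent of each gene with its 5 kb flanks (left) and the share of all peak bases of the library that fall in it in bp per Mb (right), for the 9 genes in chromosome order. Each point is 1 library. Hoxa7 is highest in covered percent in every library, and at Hoxa7, Hoxa9, Hoxa10 and Hoxa11 both KO libraries lie below both controls in each panel.

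Hoxa9 was covered to 16.7% and 14.7% in the controls and 11.2% and 9.81% in KO. Hoxa10 was covered to 13.8% and 15.5% in the controls against 10.3% and 9.91%, and Hoxa11 to 11.4% and 12.1% against 7.81% and 6.73%. At these 3 genes the groups did not overlap, and the ratio of KO to control was 0.668 at Hoxa9, 0.691 at Hoxa10 and 0.620 at Hoxa11. Hoxa7 was covered to 23.4% and 22.7% against 17.6% and 18.5%, a ratio of 0.782. Hoxa6 was covered to 18.4% and 13.8% in the controls against 10.1% and 12.6%, Hoxa4 to 12.2% and 11.5% against 8.51% and 10.3%, and Hoxa3 to 10.2% and 8.83% against 7.24% and 8.27%. The groups overlapped at the other 2 members, at Hoxa2 with 10.7% and 13.3% against 11.6% and 12.2% and at Hoxa5 with 7.24% and 4.28% against 4.57% and 4.18%.

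In all, 7 of the 9 genes were covered more in both controls and 0 more in both KO libraries. Among all protein-coding genes with a peak, 47.6% were covered more in both controls and 4.66% more in both KO libraries, and the median ratio over genes with a peak in every library was 0.864. To set this genome-wide difference aside, covered bases were also taken as a share of all peak bases of the library, in bp per Mb of peaks. On that scale 4 genes were lower in both KO libraries, namely Hoxa7, Hoxa9, Hoxa10 and Hoxa11, which lie next to each other and share regions, beside 16.6% of all genes. Hoxa9 took 45.2 and 43.0 bp per Mb in the controls and 37.5 and 31.6 in KO, and Hoxa10 took 51.3 and 62.4 against 47.8 and 43.9. Hoxa2 alone was higher in both KO libraries, at 33.8 and 34.1 bp per Mb against 25.2 and 33.8, with KO 1 and control 2 equal to the digits given, beside 20.7% of all genes. The genes concerned changed with the setting, in alternatives added after seeing the data, and Hoxa9 was the one member lower in both KO libraries in each of them. With a flank of 1000 bp they were Hoxa9 and Hoxa10, at a −log10 q of at least 5 they were Hoxa3, Hoxa4, Hoxa6, Hoxa7 and Hoxa9, and with windows of 200 bp around the summits they were Hoxa4, Hoxa9, Hoxa10 and Hoxa11. Lists of equal length added Hoxa4 and Hoxa6 to the 4 genes, and the 100000 strongest summits of each list added Hoxa3, Hoxa4 and Hoxa6.

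Over the whole window, peaks covered 11557 and 10663 bp (12.4% and 11.4%) in control 1 and control 2 and 8547 and 8779 bp (9.15% and 9.40%) in KO 1 and KO 2. Both KO libraries were lower, with a mean difference of -2447 bp (two-sided exact permutation test, p = 0.333, which is the smallest p that 2 libraries against 2 can give). The ratio of KO to control was 0.780 here and 0.854 over the genome. As a share of all peak bases of the library the window took 219 and 218 bp per Mb in the controls and 201 and 198 in KO, a difference of -19.0 (exact permutation p = 0.333). With windows of 200 bp around the summits the differences were -410 bp and -0.336 bp per Mb, whereas the difference in share was -29.2 bp per Mb at a −log10 q of at least 5 and -50.1 with the 100000 strongest summits, so its size depended on the intervals and summits used. No such difference can pass 0.05 in this design.

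The number of summits in the window was 58 and 56 in the controls and 53 and 51 in KO (exact permutation p = 0.333), and in lists cut to the same length the means were equal at 51.5. The number of peak intervals, each with 1 or more summits, went the other way, at 32 and 26 in the controls and 41 and 34 in KO. Over the genome there were 179257 and 161962 intervals in the controls and 196570 and 175484 in KO. Their median width was 179 and 183 bp in the controls and 140 and 157 bp in KO. The median percentile of the summits in the window was 34.4 and 33.3 in the controls and 44.1 and 36.0 in KO, a difference of 6.16 (exact permutation p = 0.333). This difference was 2.09 without KO 1, 10.2 without KO 2, 0.578 in lists of equal length and -1.22 when summits were ranked by −log10 p, so its size and its direction depended on the setting.

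The window was among the most covered stretches of its length. Over 23467 consecutive windows of 93394 bp with a peak, the median covered 1132 to 1342 bp per library. The Hoxa window covered 8.61 and 9.07 times that median in the controls and 7.55 and 7.48 times in the KO libraries, above 99.6% to 99.9% of the windows. This rank was computed after seeing the data and is a description.

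Set beside the other 3 Hox clusters in the same libraries, the Hoxa genes had the highest covered percent in each of the 4 libraries. The Hoxb genes on chromosome 11 had 9.17% and 9.23% in the controls and 7.67% and 7.22% in KO, the Hoxc genes on chromosome 15 had 7.39% and 7.79% against 7.05% and 7.16%, and the Hoxd genes on chromosome 2 had 9.24% and 7.73% against 8.03% and 8.07%. The mean difference from Hoxa was 2.26 percentage points for Hoxb, 3.24 for Hoxc and 2.32 for Hoxd. Hoxa was higher in 4 of 4 libraries each time (two-sided exact sign-flip permutation test, p = 0.125 for each of the 3 comparisons, also after Benjamini-Hochberg adjustment, the smallest p that 4 libraries can give). With a flank of 1000 bp the differences were 0.279 percentage points for Hoxb (exact sign-flip permutation p = 0.75), 1.41 for Hoxc (p = 0.125) and 1.13 for Hoxd (p = 0.25), so all of them shrank with the flanks and Hoxa was higher in 4 of 4 libraries only against Hoxc.

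**Figure D4:**
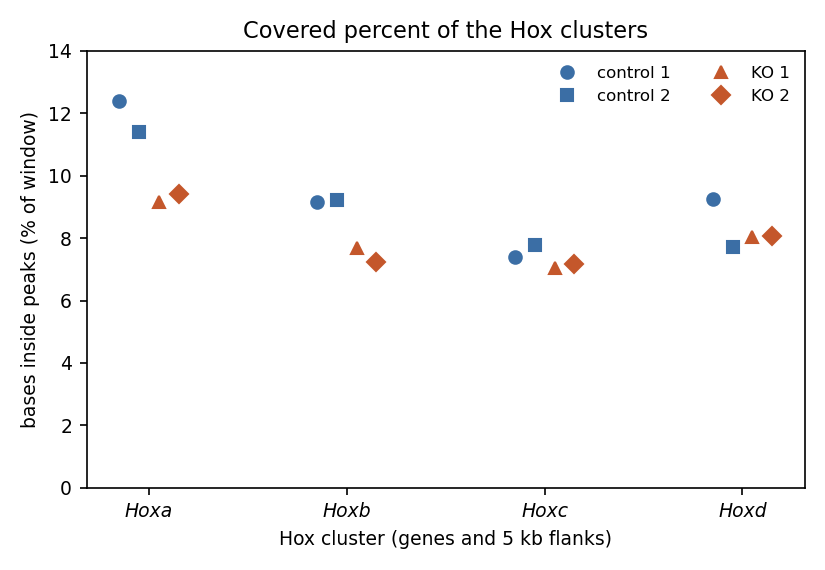
Covered percent of the genes and 5 kb flanks of the 4 Hox clusters, with 1 point per library. Hoxa lies above the other clusters in each library, at 12.4% and 11.4% in the controls and 9.15% and 9.40% in KO.

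The share of regions held by all 4 libraries was 29.8% for Hoxa, 23.5% for Hoxb, 20% for Hoxc and 29.8% for Hoxd. The clusters differed more in the number of summits that reached a −log10 q of 5, a value reached by 35.1% to 46.8% of all summits per library. Summits that reached a −log10 q of 5 numbered 26 and 30 in the controls and 25 and 22 in KO in Hoxa, against 23, 23, 21 and 12 in Hoxb, 8, 12, 12 and 7 in Hoxc and 10, 12, 15 and 9 in Hoxd. Hoxa had the most in every library although its window was the shortest, at 93394 bp against 102210 to 119716 bp. The median percentile by fold of all summits did not go the same way. Hoxa had the lowest of these clusters in control 1 (34.4, against 37.2 to 47.0), control 2 (33.3, against 35.6 to 38.8) and KO 2 (36.0, against 36.3 to 49.4). In KO 1 it had 44.1, below Hoxb (47.1) and above Hoxc (39.3) and Hoxd (39.2).

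The proteins that work with Hox factors or control Hox genes were followed in 4 lists of genes. Of their 22 genes, 11 were covered more in both controls and 1, Psip1, more in both KO libraries, beside 47.6% and 4.66% of all genes, and as a share of the library 2 were lower and 6 higher in both KO libraries, beside the 16.6% and 20.7% of all genes given above. Meis1, the partner of HOXA9 in progenitors, was one of the 2 lower ones, with a covered percent of 7.80% and 8.05% in the controls and 5.60% and 6.38% in KO. It held 77 regions, 15 of them in all 4 libraries, 1 in KO alone and 3 in control alone. The other was Suz12, a subunit of the repressive Polycomb complex that marks silent Hox genes, with 3.30% and 3.10% in the controls and 2.56% and 2.63% in KO.

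Among the 6 cofactors there were 232 regions, of which 41 were in all 4 libraries, 5 in both KO libraries alone and 5 in both controls alone. The 7 activating regulators, such as Kmt2a, the histone H3 lysine methyltransferase that keeps Hox genes on, and its partner Men1, had 173 regions with 43 in all 4 libraries, 2 in KO alone and 5 in control alone. Kmt2a was covered to 5.25% and 5.41% in the controls and 4.37% and 4.39% in KO. The 6 repressive regulators had 49 regions with 17 in all 4 libraries, 0 in KO alone and 3 in control alone. The 3 caudal factors, homeodomain proteins that act upstream of Hox genes in the embryo, had 25 regions with 7 in all 4 libraries, 2 in KO alone, both at Cdx2, and 1 in control alone, at Cdx1, and Cdx4 had a peak in its flanked span in control 1 and KO 1 alone. Over the 4 lists 22.5% of regions were in all 4 libraries, 1.88% belonged to KO alone and 2.92% to control alone, near the 23.8%, 1.41% and 2.46% over the genome.

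The 3 protein-coding genes outside the Hox clusters with covered percents most like those of Hoxa9, by Euclidean distance over the 4 libraries among 21592 genes, were S100a2 (distance 0.854 percentage points), Rara (0.913) and Itpripl1 (0.952). Rara, the retinoic acid receptor alpha gene on chromosome 11, was covered to 16.1% and 14.8% in the controls and 10.9% and 10.4% in KO. With 4 points per gene and so many genes, such likeness is a description of the covered percent alone.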

How the data were processed

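ATAC-Seq peaks of 2 control and 2 KO libraries were analyzed. Per the labels, the submitters' processing notes name Bowtie2, MACS2 and mm10, without versions or settings. The authors called peaks per library and deposited, for each summit, a fold (the ratio of its signal to the library's background), a −log10 p and a −log10 q, a display score that was not used, and the summit position. The lowest −log10 p was 2. The summit was a chromosome position rather than an offset in 253 to 492 rows per list. Depth is unknown without read counts, and precision rests on the spread of 2 libraries per genotype.

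Using pandas 2.3.3 and numpy 2.4.6 (Python 3.11.15), intervals on the autosomes and X were merged (1 bp overlap), covered bases were counted in genes with 5000 bp flanks, and summits were ranked by fold within each list. Differences were tested with two-sided exact permutation tests, which for 2 against 2 libraries cannot go below 0.333. Region and coverage code was checked on simulated data. Gene spans and promoters were taken from RefSeq (GRCm38.p6).

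The text names all 9 genes, the 10 regions of highest mean percentile, regions of a single genotype and the 3 genes most like Hoxa9. Further shared regions, genes of the lists and single-library peaks were named after their values were seen. Members, lists and rules were chosen with earlier results of these data known. Alternatives were a −log10 q of at least 5, lists of equal length (240881 summits), the 100000 strongest summits, a flank of 1000 bp, windows of 200 bp around summits, a covered share of at least 0.5, ranking by −log10 p, a replicate block and leaving out each library. An annotation that overlaps 1 region is not reported here.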

Additional observations from a re-analysis of the deposited data

How the results depend on the processing

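The peak lists hold no reads, so presence depends on each list's threshold and depth, and no test between genotypes can pass 0.05. Of 130 alternative values, 103 kept their direction or stayed within 1.5 times the count, 26 moved and 1 reversed. The reversed value was the difference in median percentile, -1.22 when ranked by −log10 p. The difference in summits was 0 in lists of equal length and with the 100000 strongest summits, in place of -5. Requiring a covered share of at least 0.5 gave 9 regions in all 4 libraries in place of 14 and 1 only in control. Lists of equal length and the 100000 strongest summits each gave 1 region only in KO. Leaving out 1 library gave 3 to 5 regions only in KO and 1 to 7 only in control, by construction of fewer libraries.

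Counts over shared regions and members were tried under settings added after seeing the data. Members with a smaller share of the library in both KO libraries numbered 7 with the 100000 strongest summits and 2 with a flank of 1000 bp, in place of 4, while those with a larger share numbered 0 in both settings and 2 with windows of 200 bp, in place of 1. Such windows also gave 1 region wider in both controls in place of 10, and 0 in place of 1 wider in both KO libraries. Regions of higher percentile in both KO libraries numbered 6 in lists of equal length and 4 with the 100000 strongest summits, in place of 2. Those higher in both controls numbered 3 at a −log10 q of at least 5, 0 with the 100000 strongest summits and 2 with windows of 200 bp, in place of 1. The cause was not tested.

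The replicate numbers gave no pairing in the data, since deviations of same-numbered libraries correlated at 0.01 over 80271 shared regions. With the replicate block the p was 0.5 for the difference in covered bases (-2447), in the share of the library (-19.0), in summits (-5) and in median percentile (6.16), which is the smallest p that 2 pairs can give.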
